A study of Mus musculus with 8 samples.

Results

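Amino acid and one-carbon genes that lie under the transcription factor ATF4 were measured by RNA-seq in hematopoietic stem cells (HSCs) from Mitol knockout and control mice. The set holds 10 genes, Phgdh, Psat1, Psph, Shmt2, Mthfd2, Asns, Slc7a5, Sesn2, Trib3 and Chac1, out of 22065 named genes in the count table. The genes were picked by symbol, and all 10 have a row in the table. Each group comprised 4 libraries, and each library was made from 100 bone marrow cells sorted as CD150+ CD48- EPCR+ Lineage- HSCs. The mice were C57BL/6 and 8 to 10 weeks old. The knockout group, written Mitol Δ/Δ, carried 2 floxed Mitol alleles together with MX1-cre, and the control group carried the floxed alleles without the Cre. Both groups received polyinosinic-polycytidylic acid (Poly:IC), which switches on MX1-cre, and cells were taken 1 week later. MX1-cre answers to interferon and acts in many tissues, so the deletion is not limited to HSCs. The labels number the libraries of a group from 1 to 4 and do not say whether each came from a separate mouse, so p-values here measure the spread between libraries, which may be technical.

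The integrated stress response is a pathway in which kinases phosphorylate the translation factor eIF2α in answer to endoplasmic reticulum stress, mitochondrial stress, heme shortage, viral RNA or a lack of amino acids. Most translation then slows while the mRNA of ATF4 is translated more, so that ATF4 activity can rise with no change in its mRNA. ATF4 binds C/EBP-ATF response elements and raises genes that make, import and charge amino acids. Among them, the serine synthesis enzymes PHGDH, PSAT1 and PSPH turn a glycolytic intermediate into serine, and the mitochondrial enzymes SHMT2 and MTHFD2 pass a carbon of serine to folate for the making of purines and thymidylate. HSCs are mostly quiescent and need these building blocks when they divide.

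Short stretches near the start sites of Asns, Chac1 and Trib3 are shown because they carry the letters of the ATF4 element, and a longer one before the start of Mthfd2 because it holds no match. The capitals mark each match to TGATGNAA, the core of the C/EBP-ATF response element, which was searched on both strands. The sequences come from the RefSeq promoter table (build GRCm38.p6), were placed on GRCm39 by exact match, and are written 5′ to 3′ on the strand of the gene. The Asns stretch lies on chr6:7693214-7693243 (minus strand), that of Mthfd2 on chr6:83294605-83294836 (minus strand), that of Chac1 on chr2:119181519-119181548 (plus strand), and that of Trib3 on chr2:152185948-152185977 (minus strand).
Asns: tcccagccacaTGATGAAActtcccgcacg
Mthfd2: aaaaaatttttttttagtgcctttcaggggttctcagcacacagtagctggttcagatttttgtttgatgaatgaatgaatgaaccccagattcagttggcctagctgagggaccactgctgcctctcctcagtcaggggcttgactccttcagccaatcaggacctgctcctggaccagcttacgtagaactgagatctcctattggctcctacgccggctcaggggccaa
Chac1: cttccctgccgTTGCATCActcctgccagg
Trib3: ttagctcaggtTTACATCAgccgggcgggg

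The match in Asns, TGATGAAA, lies 23 to 16 bases before the RefSeq start. GENCODE starts the canonical transcript of Asns 510 bases further upstream, so that by this annotation the match lies downstream of the start. In Chac1 it is TGATGCAA, read on the opposite strand 193 to 186 bases before the RefSeq start, and in Trib3 it is TGATGTAA, read on the opposite strand at bases 15 to 22 after the RefSeq start. The GENCODE canonical starts of Chac1, Trib3 and Mthfd2 lie 34, 32 and 18 bases upstream of those of RefSeq. Windows of 300 bases, from 250 before to 50 after the start, were found for 9 of the 10 genes, Slc7a5 being the exception. TGATGNAA was found for these 3 of the 9 genes and in 1304 of all 32851 windows in the table (3.97%). Its exact form TGATGCAA was in 294 windows (0.895%) and among the 9 genes only in Chac1. The cAMP response element TGACGTCA, a palindrome that other ATF factors bind, was in 588 windows (1.79%) and in 0 of the 9.

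The libraries held 7214935 to 12398138 counts on named genes. The 12 genes listed as HSC markers include Cd48, which the sort selected against, beside Cd34 and Flt3. Their sum is therefore not a measure of HSC identity alone. All 12 were detected in the libraries. Their summed level ran from 27607 to 31315 normalized counts in Mitol Δ/Δ libraries and from 39113 to 46153 in control libraries. In log2 fold change, 5 were above 0 and 7 below 0. By the test below, 3 were lower, Kit and Hlf among them, and Cd48 was higher in Mitol Δ/Δ HSCs. The paper's definition of long-term HSCs also required c-Kit, the protein that Kit encodes. Of all tested genes, 3.75% were lower and 4.68% higher by the same test. A normalized count is a read count divided by the library's size factor. Of the markers of other cells, 5 of 8 were measured for B cells (1 tested) and 3 of 7 for T cells (2 tested). For mast cells and basophils 2 of 8 were measured (1 tested), and none of those tested was called. Summed B-cell markers were 136 to 150 normalized counts in Mitol Δ/Δ and 153 to 211 in control libraries. These sums stood apart, lower in Mitol Δ/Δ, a separation seen in 15.4% of single tested genes in either direction. Summed T-cell markers were 189 to 259 against 172 to 200. Those of mast cells and basophils were 11.4 to 27.5 against 11.3 to 28.7. The T-cell marker Lck had groups that stood apart, higher in Mitol Δ/Δ HSCs, as did 8.17% of all tested genes. The sum of 8 detected neutrophil markers was 485 to 1023 in Mitol Δ/Δ and 405 to 616 in control libraries, most of it Prtn3, with S100a9 at 0 in all 4 Mitol Δ/Δ libraries. Red cell markers stood higher in Mitol Δ/Δ libraries, with sums of 918, 977, 3548 and 2495 in replicates 1 to 4 against 256 to 739 in control libraries. Mitol Δ/Δ replicate 3 held 388 normalized counts of the globin gene Hba-a1, against at most 7.91 in any other library. The deleted gene Marchf5, which encodes MITOL, had a log2 fold change of -0.15 (edgeR, adjusted p = 0.498), and counts per gene cannot separate deleted from remaining exons. Mitol Δ/Δ replicate 4 lay within the control range for 8 of the 9 genes tested below, so results are given with and without it. It was picked from the values of these same genes, so calls gained without it are no independent evidence of a change.

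Of the 10 genes, 9 passed the expression filter and were tested by the quasi-likelihood test of edgeR over 16444 genes, with Benjamini-Hochberg adjustment. Mthfd2 and Slc7a5 rose in Mitol Δ/Δ HSCs and none fell, against 8.43% of all tested genes called, 4.68% upwards and 3.75% downwards. Log2 fold changes were above 0 for 7 of the 9, against 47.7% of all tested genes, and the median over the 9 was 0.47, against -0.02 over all genes. The 7 were the 6 biosynthetic enzymes and the transporter Slc7a5, while Trib3 had a value below 0, and so had Sesn2, whose value turned above 0 with limma-voom, without the filter and with the replicate number as a block. At an unadjusted p under 0.05, the count was 7 of 9, against 4336 of 16444. With DESeq2, the count was 5 of the 10 genes, all upwards, against 14% of all genes. Without Mitol Δ/Δ replicate 4, edgeR called 8 of the 9, with 7 higher, Trib3 lower and Sesn2 not called, against 14.8% of all genes. Without control replicate 1 it called Asns, Mthfd2 and Slc7a5, against 7.83% of all genes. Leaving out control replicate 2, 3 or 4 left none of the 9 called, where 2.14%, 4.86% and 3.07% of all genes were called, and leaving out Mitol Δ/Δ replicate 1, 2 or 3 likewise left none, where 3.37%, 2.91% and 3.1% of all genes were called. In bulk libraries, more cells with a transcript and more transcript per cell cannot be told apart.

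**Figure D1:**
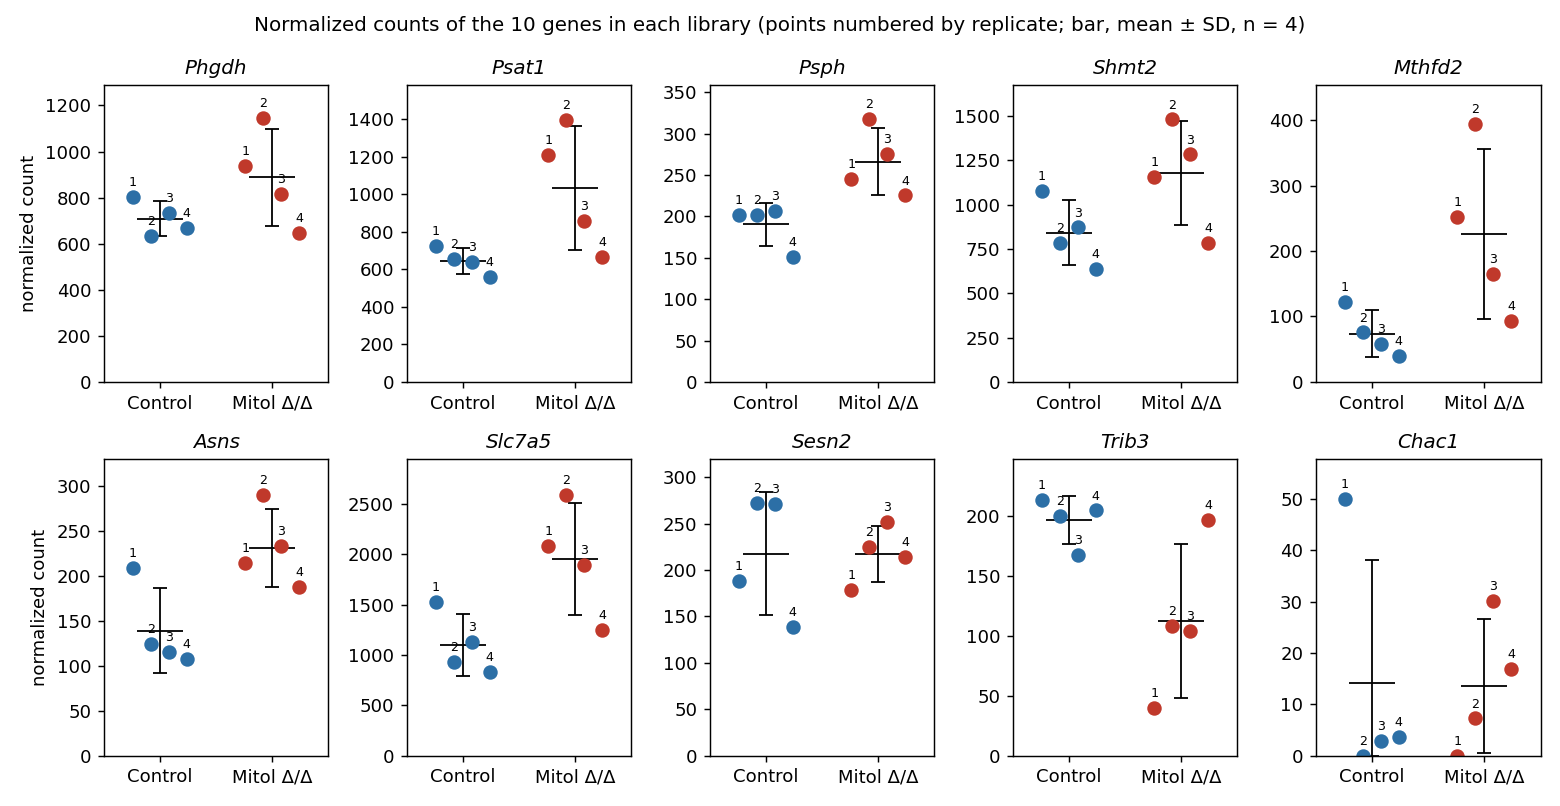
Normalized count of each of the 10 genes (vertical axis, starting at 0, own scale per panel) in the 4 control and 4 Mitol Δ/Δ libraries, with points numbered by replicate and bars giving the mean ± SD, cut at 0 for Chac1. Mitol Δ/Δ replicates 1, 2 and 3 lie above every control library for Phgdh, Psat1, Psph, Shmt2, Mthfd2, Asns and Slc7a5, and replicate 4 lies within the control range for each of these but Psph.

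Mthfd2 encodes the mitochondrial methylenetetrahydrofolate dehydrogenase and cyclohydrolase, an enzyme that is high in dividing cells and low in most adult tissue. The gene lies at chr6:83282673-83302890 of GRCm39. Its normalized counts were 253, 395, 165 and 93.1 in Mitol Δ/Δ replicates 1 to 4 and 123, 75.5, 57.5 and 39.5 in control replicates 1 to 4. Replicates 1 to 3 of the knockout lay above every control library, and replicate 4 lay between control replicates 1 and 2. The mean was 226 ± 129.9 against 73.8 ± 35.7 (SD, n = 4), a ratio of 3.07 and the largest among the 10 genes. The log2 fold change was 1.62 (SE 0.42, 95% interval 0.71 to 2.52, edgeR, adjusted p = 0.0354). Of 7 other normalizations, filters, tools and designs, limma-voom ended the call (adjusted p = 0.0534). Leaving out any of control replicates 2, 3 and 4 or Mitol Δ/Δ replicates 1, 2 and 3 ended the call, with adjusted p between 0.0566 and 0.101. Without Mitol Δ/Δ replicate 4 the log2 fold change was 1.90 (edgeR, adjusted p = 0.0055).

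Shmt2 encodes the mitochondrial serine hydroxymethyltransferase, which splits serine into glycine and the folate-bound carbon that MTHFD2 uses, and lies at chr10:127352266-127358323. Normalized counts were 1156, 1481, 1283 and 785 in the Mitol Δ/Δ libraries and 1079, 783, 871 and 636 in control libraries. The first 3 knockout libraries again lay above all control libraries, and the other lay among them. Its log2 fold change of 0.47 (SE 0.19, 95% interval 0.058 to 0.87) did not pass the test (edgeR, adjusted p = 0.137). Without Mitol Δ/Δ replicate 4 it was 0.64 and passed (edgeR, adjusted p = 0.0166), while the other 7 fits that left out a library did not (adjusted p from 0.0730 to 0.326). The summed normalized count of both mitochondrial genes was 1403 ± 409 in Mitol Δ/Δ HSCs against 916 ± 218 in the controls (SD, n = 4). Exons of Shmt2 share up to 727 bases with Ndufa4l2 on the opposite strand, and the strand setting of the counting is not stated. Ndufa4l2 itself averaged 0.196 normalized counts in the knockout libraries and 2.83 in the controls.

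The serine synthesis branch was higher in the same 3 libraries, and none of its 3 genes passed the test over all 8 libraries. Phgdh, at chr3:98220484-98255047, encodes the dehydrogenase of its entry step. Its normalized counts were 939, 1146, 817 and 646 in Mitol Δ/Δ libraries and 803, 632, 732 and 668 in control libraries. The groups overlapped through Mitol Δ/Δ replicate 4, which stood below 3 of the 4 control libraries. Its log2 fold change of 0.31 (SE 0.15, 95% interval -0.024 to 0.64, edgeR, adjusted p = 0.223) was the smallest of the 7 positive values.

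Psat1, the aminotransferase of the next step, lies at chr19:15882039-15924701. Normalized counts were 1210.0, 1397, 856 and 668 in the Mitol Δ/Δ libraries and 724, 653, 641 and 559 in control libraries. Mitol Δ/Δ libraries spread widely here, with an SD of 331 against 67.8 in the control libraries. Psat1 had a log2 fold change of 0.66 (SE 0.19, 95% interval 0.25 to 1.07, edgeR, adjusted p = 0.0506), just outside the threshold. The estimate of DESeq2 passed (adjusted p = 0.0101), as did edgeR without Mitol Δ/Δ replicate 4 (log2 fold change 0.84, adjusted p = 0.0047). With any other library left out, Psat1 did not pass (edgeR, adjusted p from 0.0633 to 0.137).

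Psph encodes the phosphatase of the last step and lies at chr5:129841925-129864513. Its normalized counts of 246, 318, 276 and 225 in Mitol Δ/Δ libraries stood wholly above those of 202, 202, 206 and 151 in control libraries. Psph alone of the 10 genes had groups that stood apart (2-sided exact permutation test, p = 0.0286, the smallest that 4 libraries against 4 allow), a separation seen in 15.4% of all tested genes and in the upward direction in 8.17%. The log2 fold change of 0.47 (SE 0.16, 95% interval 0.13 to 0.81) did not pass the test over all genes (edgeR, adjusted p = 0.0810). Exons of Psph share up to 465 bases with Cct6a, a chaperonin gene on the opposite strand that rose by 0.49 on the log2 scale (edgeR, adjusted p = 0.0292), and its part in the Psph counts was not tested. Over Phgdh, Psat1 and Psph together, the sum was 2186 ± 570 in Mitol Δ/Δ HSCs against 1543 ± 149 in the controls (SD, n = 4).

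Asns encodes asparagine synthetase, which makes asparagine from aspartate and glutamine, and lies at chr6:7671667-7728461. Its normalized counts were 215, 291, 233 and 188 in Mitol Δ/Δ libraries and 209.7, 124, 116 and 108 in control libraries. All knockout libraries stood above control replicates 2, 3 and 4, while control replicate 1 reached into their range. The log2 fold change was 0.72 (SE 0.22, 95% interval 0.24 to 1.21, edgeR, adjusted p = 0.0618). Without control replicate 1 it was 0.99 and passed (edgeR, adjusted p = 0.0183), and in the absence of Mitol Δ/Δ replicate 4 its value of 0.83 also passed (edgeR, adjusted p = 0.0296). The other 6 fits that left out a library did not pass (edgeR, adjusted p from 0.104 to 0.164).

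Slc7a5 encodes LAT1, the light chain of the exchanger that brings in leucine and other large neutral amino acids, and lies at chr8:122607884-122634433. Normalized counts were 2083, 2594, 1893 and 1252 in the Mitol Δ/Δ libraries and 1526, 928, 1132 and 829.8 in control libraries. Replicate 4 of the knockout stood above 3 control libraries and below control replicate 1. The mean was 1955 ± 555 against 1104 ± 308 (SD, n = 4), a ratio of 1.77, with a log2 fold change of 0.81 (SE 0.21, 95% interval 0.34 to 1.27, edgeR, adjusted p = 0.0388). Slc7a5 was past the threshold under all 7 other normalizations, filters and tools, with adjusted p from 0.0032 to 0.0416. Leaving out any of control replicates 2, 3 and 4 or Mitol Δ/Δ replicates 1, 2 and 3 ended the call, with adjusted p between 0.0756 and 0.112, and without Mitol Δ/Δ replicate 4 the log2 fold change was 0.99 (edgeR, adjusted p = 0.0048). Slc3a2, the heavy chain CD98 that carries LAT1 to the membrane, had a log2 fold change of 0.31 (SE 0.17) that did not pass (edgeR, adjusted p = 0.260).

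The other 3 genes encode stress effectors rather than enzymes of synthesis, and neither of the 2 that were tested passed. Sesn2, at chr4:132219335-132237815, encodes sestrin 2, a leucine sensor that restrains mTORC1. Its means of 217 ± 30.3 in Mitol Δ/Δ HSCs against 218 ± 65.9 in the controls (SD, n = 4) came from 178, 224, 252 and 214 against 189, 272, 271 and 138 normalized counts. The knockout libraries all lay within the range of the control libraries. The log2 fold change was -0.02 (SE 0.21, edgeR, adjusted p = 0.965), and its 95% interval of -0.48 to 0.44 leaves room for changes in either direction.

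Trib3, at chr2:152179337-152191958, encodes the pseudokinase Tribbles 3, which ATF4 and CHOP induce and which restrains both AKT and ATF4. Normalized counts were 39.9, 108, 104 and 197 in the Mitol Δ/Δ libraries and 214, 200.04, 168 and 205 in control libraries. Replicates 1 to 3 of the knockout lay below every control library, and replicate 4 lay among them, the same division as in 6 of the 7 genes above but in the opposite direction. Its log2 fold change was -0.83 (SE 0.34, 95% interval -1.58 to -0.087) and did not pass (edgeR, adjusted p = 0.146). Without Mitol Δ/Δ replicate 4 it was -1.23 and passed (edgeR, adjusted p = 0.0154), while the other 7 fits that left out a library did not (adjusted p from 0.182 to 0.257).

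Chac1, at chr2:119180757-119184866, encodes an enzyme that degrades glutathione and is among the genes most readily induced by ATF4, ATF3 and CHOP. It was too low for the test. Its raw counts were 0, 7, 33 and 16 in Mitol Δ/Δ libraries and 38, 0, 3 and 4 in control libraries, so the control mean rested on replicate 1. In normalized counts the means were 13.6 ± 13.1 and 14.1 ± 24.0 (SD, n = 4, 2-sided exact permutation test, p = 1.00). No difference was detectable at this depth.

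**Figure D2:**
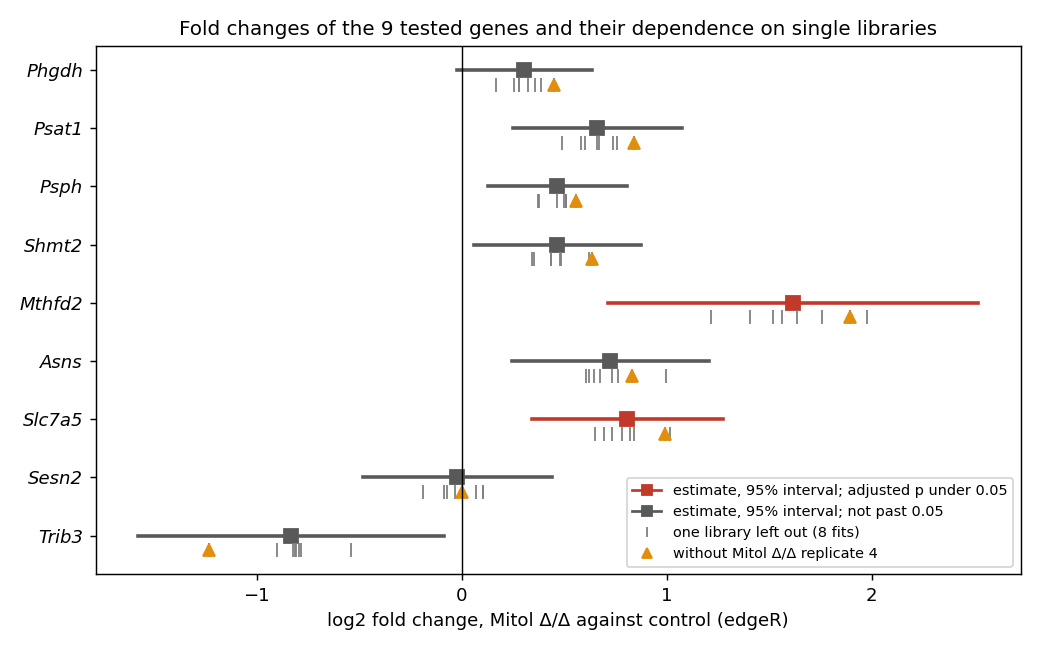
Log2 fold change between Mitol Δ/Δ and control HSCs by edgeR (horizontal axis) for the 9 tested genes, with 95% intervals, red where the adjusted p was under 0.05. Ticks and the triangle show the 8 fits that each leave out a library, the triangle being the fit without Mitol Δ/Δ replicate 4, which moved Mthfd2 from 1.62 to 1.90 and Trib3 from -0.83 to -1.23.

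Per kilobase of the canonical transcript, the genes differed widely in level. In control HSCs, Phgdh (374 ± 39.7 normalized counts per kilobase, SD), Shmt2 (367 ± 80.6), Slc7a5 (314 ± 87.6) and Psat1 (246 ± 25.9) stood highest, and neighbours among these differed by less than the larger of their SDs. Trib3 (94.0 ± 9.59), Psph (78.3 ± 10.8) and Sesn2 (62.4 ± 18.9) followed, then Mthfd2 (35.1 ± 17.0), Asns (28.5 ± 9.66) and Chac1 (8.504 ± 14.5). Trib3 and Psph, Sesn2 and Mthfd2, and Asns and Chac1 were neighbours that differed by more than the larger SD. In Mitol Δ/Δ HSCs Slc7a5 (556 ± 158), Shmt2 (512 ± 128), Phgdh (469 ± 111) and Psat1 (394 ± 126) came first, and Mthfd2 (108 ± 61.8) was next to Psph (109.5 ± 16.6). Trib3 (53.7 ± 30.8) then stood between Sesn2 (62.3 ± 8.70) and Asns (47.3 ± 8.87), with Chac1 (8.18 ± 7.86) the lowest.

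The libraries kept nearly the same order across the 7 genes with positive fold changes. Trib3 and Sesn2 departed from it, with Mitol Δ/Δ replicate 4 the highest knockout library for Trib3 and replicate 3 for Sesn2. Over the 6 biosynthetic enzymes and Slc7a5, Mitol Δ/Δ replicate 2 was the highest knockout library for 7 of 7 genes and replicate 4 the lowest for 7 of 7. Among control libraries, replicate 1 was the highest for 6 of 7 and replicate 4 the lowest for 6 of 7. Markers of the cell cycle shared part of this order. Mitol Δ/Δ replicate 4 was the lowest knockout library for 18 of 18 markers and replicate 2 the highest for 11. Among control libraries, replicate 3 was the highest for 9 markers, most of them mitotic, and replicate 1 for 6, the replication genes Mcm2, Mcm3, Mcm5, Mcm6, Gins2 and the repair gene Ung. Of 18 such markers, 12 rose, against 4.68% of all tested genes. All 18 had a log2 fold change above 0, against 47.7% of all tested genes, with a median of 1.08. Their summed level was 2.42, 2.51, 1.71 and 1.21 times the control mean in Mitol Δ/Δ replicates 1 to 4 and 1.14, 0.94, 1.14 and 0.78 times in control replicates 1 to 4. For Mthfd2 the same ratios were 3.43, 5.35, 2.23 and 1.26 in Mitol Δ/Δ and 1.66, 1.02, 0.78 and 0.54 in control libraries. The part of cell division in these values was not tested. Red cell markers had another order, being highest in Mitol Δ/Δ replicates 3 and 4.

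**Figure D3:**
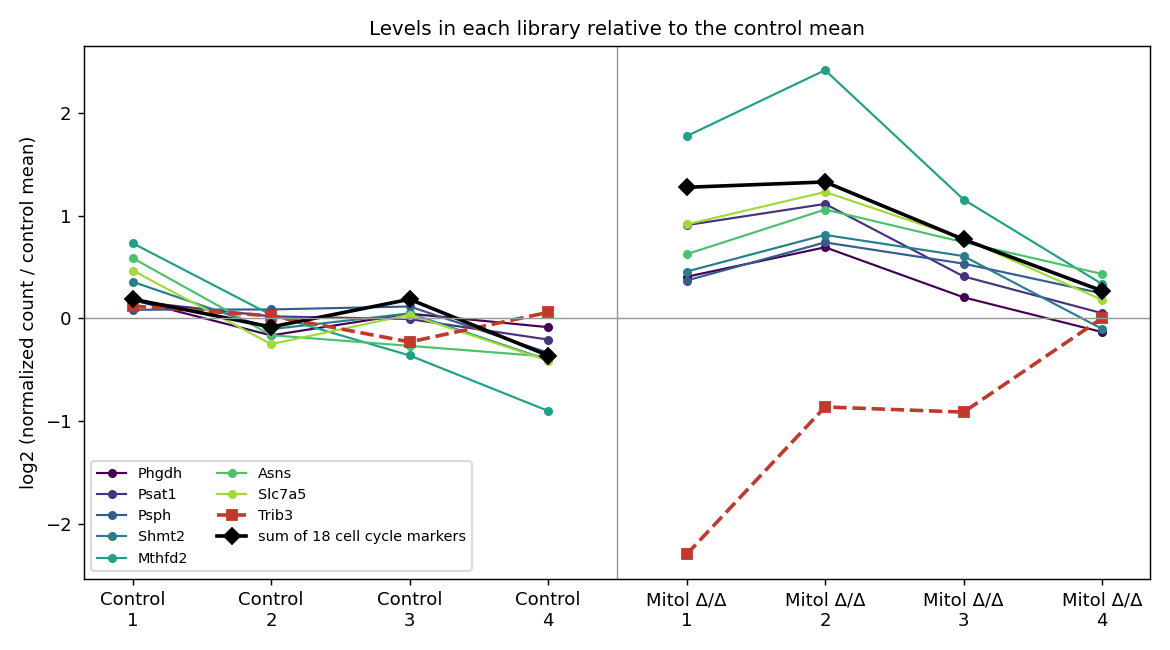
Level of each gene in each library divided by the control mean (vertical axis, log2), with the sum of 18 cell cycle markers in black. Lines only join the values of a gene, since libraries have no order. Mitol Δ/Δ replicate 2 is the highest library for the 7 genes with positive fold changes. For these genes replicate 4 runs from 0.91 (Phgdh) to 1.35 (Asns) times the control mean. Trib3 (dashed) is lowest in Mitol Δ/Δ replicate 1.

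By the measure of mean absolute difference in centred log2 CPM over the 8 libraries, the genes most like Mthfd2 among 12004 candidates were Mpp3 (0.156), Fanca (0.253), Uhrf1 (0.265), Rps6ka6 (0.270) and Mybl2 (0.279). Mpp3 encodes a membrane scaffold protein, Fanca a protein of DNA crosslink repair, Uhrf1 one that helps copy DNA methylation, Rps6ka6 a ribosomal S6 kinase and Mybl2 a transcription factor of cell cycle genes. The nearest of the other 9 genes was Slc7a5 (0.386).

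Upstream of the set, neither Atf4 nor any of the 4 eIF2α kinases passed the test at the mRNA level. Atf4 itself had 1060 (replicate 1), 1297, 1562 and 1472 normalized counts in Mitol Δ/Δ libraries and 1881, 1525, 1714 and 920.5 in control libraries, with the groups overlapping. Its 95% interval ran from -0.59 to 0.23 on the log2 scale around -0.18 (edgeR, adjusted p = 0.589). Of the eIF2α kinases, log2 fold changes were 0.18 for Eif2ak1 (HRI, adjusted p = 0.425), 0.21 for Eif2ak2 (PKR, adjusted p = 0.227), 0.03 for Eif2ak3 (PERK, adjusted p = 0.899, and -0.02 with library totals alone) and -0.17 for Eif2ak4 (GCN2, adjusted p = 0.236), all by edgeR. Among 16 regulators of the pathway, 1 rose and none fell, or 6.25% against 4.68% of all tested genes. This was Eif2b5, the catalytic subunit of the exchange factor eIF2B on which phosphorylated eIF2α acts, with 542 ± 52.3 against 412 ± 22.5 normalized counts (SD, n = 4) and a log2 fold change of 0.38 (SE 0.11, edgeR, adjusted p = 0.0473). The call ended with library totals alone, without the filter and with the replicate number as a block (adjusted p = 0.0825, 0.0511 and 0.0682). The median over the 16 was 0.20.

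Around the 10 genes, 110 tested genes of neighbouring pathways held 4 that rose and none that fell, or 3.64% against 4.68% of all tested genes upwards, with a median log2 fold change of 0.14. The 24 genes of folate one-carbon metabolism and glycine cleavage had none past the threshold, 14 above 0 and a median of 0.10. Its highest value was 0.99 (SE 0.32, edgeR, adjusted p = 0.0692) for Tyms, which makes thymidylate. Tyms passed in 1 of the 8 fits that left out a library, that without Mitol Δ/Δ replicate 4 (edgeR, adjusted p = 0.0032). Of 13 other amino acid enzymes under ATF4, 2 rose, 11 were above 0 and the median was 0.23. Ass1, argininosuccinate synthetase, had 161 ± 48.0 against 87.7 ± 15.7 normalized counts (SD, n = 4) and a log2 fold change of 0.86 (SE 0.23, edgeR, adjusted p = 0.0390). Oat, ornithine aminotransferase, had 929 ± 104 against 704 ± 66.7 and a log2 fold change of 0.38 (SE 0.11, edgeR, adjusted p = 0.0459), a call that ended with library totals alone and with the replicate number as a block (adjusted p = 0.0675 and 0.0546). The groups of both genes did not overlap. Pycr1 and Aldh18a1, which make proline, had log2 fold changes of 0.82 and 0.47 that did not pass (edgeR, adjusted p = 0.0886 and 0.0707).

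Amino acid transporters had none of 12 past the threshold, 10 above 0 and a median of 0.25. Of 14 tested stress effectors under ATF4, 1 rose, 8 were above 0 and the median was 0.07. This was Vldlr, the very low density lipoprotein receptor, with 333, 539, 807 and 1206 normalized counts in Mitol Δ/Δ libraries against 224, 179, 174 and 201 in control libraries. The groups did not overlap, and replicate 4, the lowest knockout library for Mthfd2 and Slc7a5, was here the highest. Red cell markers were likewise high in Mitol Δ/Δ replicates 3 and 4, and their part in the Vldlr values was not tested. The log2 fold change of Vldlr, 1.87 (SE 0.31, edgeR, adjusted p = 0.0082), stayed past the threshold in all 8 fits that left out a library, unlike that of Mthfd2 or Slc7a5. The calls of Eif2b5, Ass1 and Oat were lost when any of control replicates 2, 3 and 4 or Mitol Δ/Δ replicates 1, 2 and 3 was left out (edgeR, adjusted p from 0.0562 to 0.129), and those of Eif2b5 and Oat also without control replicate 1 (edgeR, adjusted p = 0.0514 and 0.0728). Ddit3, which encodes CHOP, had a log2 fold change of -0.30 (edgeR, adjusted p = 0.320) and Atf5 one of 0.91 (edgeR, adjusted p = 0.130). Genes of amino acid sensing to mTORC1 had none of 24 past the threshold, 13 above 0 and a median of 0.12.

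**Figure D4:**
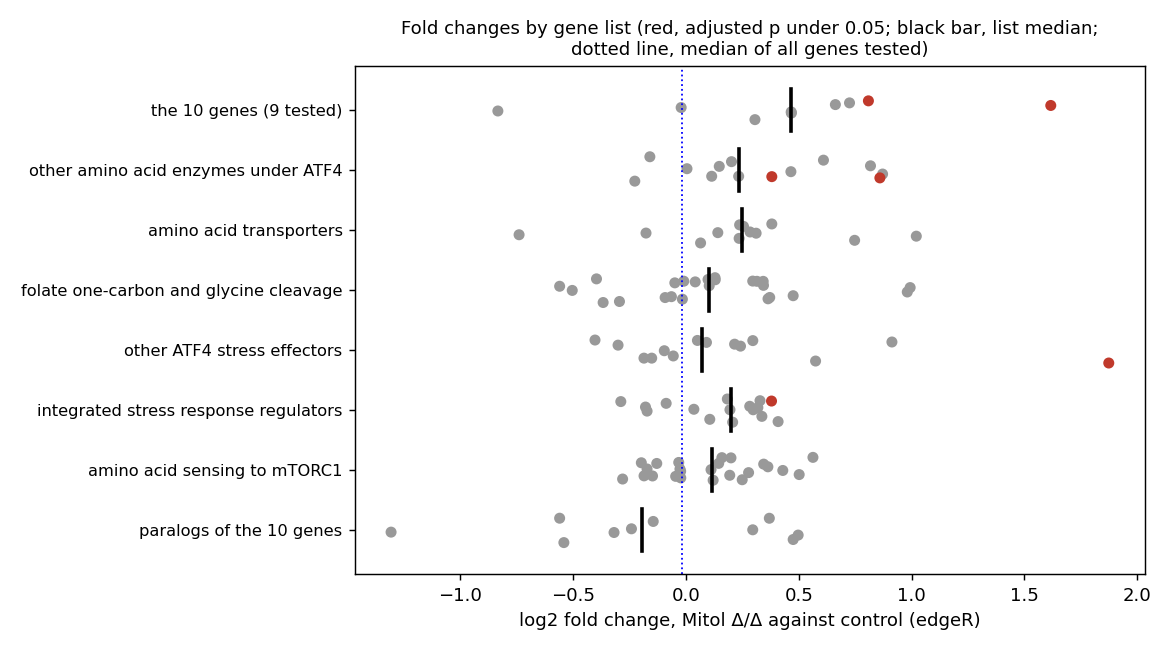
Log2 fold change by edgeR (horizontal axis) of every tested gene in the 10-gene set and 7 neighbouring lists, red where the adjusted p was under 0.05, with the median of each list as a black bar and that of all 16444 genes as a dotted line. The 10-gene set has a median of 0.47, and the other medians lie between -0.19 and 0.25.

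Paralogs of the 10 genes had none of 10 past the threshold, 4 above 0 and a median of -0.19. The cytosolic folate enzymes Shmt1 and Mthfd1 had log2 fold changes of 0.30 (edgeR, adjusted p = 0.446) and 0.48 (edgeR, adjusted p = 0.0596). Mthfd2l, the second mitochondrial dehydrogenase of this step, had -0.56 (SE 0.19, edgeR, adjusted p = 0.0926), with 122 ± 21.0 normalized counts in Mitol Δ/Δ HSCs against 177 ± 35.7 in the controls (SD, n = 4). Mthfd2 and Mthfd2l thus had estimates of opposite sign, of which that of Mthfd2 alone passed the test. The sestrins Sesn1 and Sesn3 had -0.15 (edgeR, adjusted p = 0.473) and -0.32 (edgeR, adjusted p = 0.103), and Chac2 had 0.37 (edgeR, adjusted p = 0.544). Trib1 and Trib2 had 0.50 (edgeR, adjusted p = 0.427) and -1.31 (edgeR, adjusted p = 0.211). The related transporters Slc7a8 and Slc7a7 had -0.24 (edgeR, adjusted p = 0.429) and -0.54 (edgeR, adjusted p = 0.310).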

How the data were processed

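RNA-seq was done on 4 Mitol Δ/Δ and 4 control libraries of 100 sorted HSCs each. Per the study's methods and the submitters' processing notes, reads were aligned with STAR to mm39, handled with SAMtools and counted per gene with Subread, and the authors deposited raw counts without normalization. The annotation and strand setting are not given in the sources used here. Of 23094 rows, 1029 carry no gene symbol (0.335% to 0.467% of a library's counts) and were left out. Library totals on named genes ran from 7214935 to 12398138. Without molecular identifiers, reads do not count independent molecules, and the 4 libraries per group limit precision.

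Groups were compared with edgeR (version 4.0.16), using its quasi-likelihood test after TMM normalization, its default expression filter and Benjamini-Hochberg adjustment over 16444 genes, at an adjusted p under 0.05. Normalized counts are counts divided by size factors of DESeq2 (version 1.42.0). For single levels, an exact permutation test (2-sided) ran over the 70 arrangements of the libraries. Alternatives were DESeq2, limma-voom (limma version 3.58.1), other normalizations and filters, a threshold of 0.10, the replicate number as a block, log2 and CPM scales for the permutation tests, and leave-one-out fits. The edgeR fit with its default settings, DESeq2 and limma-voom were first tested on simulated counts, and the other settings were not. Positions came from GENCODE vM39 on GRCm39, and levels per kilobase used the length of the canonical transcript.

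The 10 genes and the lists were chosen with earlier results of these data known. Named genes were the 10 genes, Atf4 and the eIF2α kinases, the paralogs, genes of neighbouring pathways past the threshold by edgeR, Marchf5, and the 5 genes most like the one with the lowest p, among tested genes with at least 50 mean normalized counts. Slc3a2, Tyms, Pycr1, Aldh18a1, Ddit3, Atf5, Cct6a, Ndufa4l2 and the cell markers were added after their values were seen.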

Additional observations from a re-analysis of the deposited data

Results flagged for a closer look

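Among 60 groups of 4 libraries (30 named genes), 4 held a library far from the other 3, by a gap past Dixon's 95% critical value. Chance alone gives such a gap in about 1 of 20 groups. Asns had control replicate 1 high (209.7 normalized counts against 108 to 124 in the other control libraries, gap 0.836 of the range). Psph had control replicate 4 low (151 against 202 to 206, gap 0.919 of the range). Chac1 had control replicate 1 high (50.1 against 0 to 3.59, gap 0.928 of the range), so that its control mean of 14.1 rested on that library. Trib2 had control replicate 4 high, at a gap of 0.836 of the range. Without control replicate 1, Asns was past the threshold (edgeR, log2 fold change 0.99, adjusted p = 0.0183). Without control replicate 4, Psph was not (edgeR, adjusted p = 0.195). Each of these libraries was picked from the values of the gene itself, so neither fit is independent evidence. For Asns, 6 of the 8 fits that left out a library did not pass (edgeR, adjusted p from 0.104 to 0.164). The cause of these gaps was not tested.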

How the results depend on the processing

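Over all genes, 2315 were past the threshold with DESeq2, 2585 at an adjusted p under 0.10 and 359 to 2501 with a library left out, against 1386. Of the 10 genes, 5 passed with DESeq2, 5 at an adjusted p under 0.10 and 0 to 8 with a library left out, against 2. Of the neighbouring genes, 9 passed with DESeq2, 2 with library totals alone, 13 at an adjusted p under 0.10 and 1 to 18 with a library left out, against 4. With the replicate number as a block, the same counts were 4 of the 10 genes, adding Asns and Psat1, 7 neighbouring genes and 1652 of all genes. Libraries with the same number did not deviate together (correlations from -0.070 to 0.080, with the own number highest for 1 of 4), so the block was not used.

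Over the 9 tested genes, 7 settings with all libraries kept 51 of 63 estimates on the same side of 0 and of the threshold, 8 became calls, 1 lost its call (Mthfd2 with limma-voom, adjusted p = 0.0534) and 3 changed sign. Those 3 were Sesn2 with limma-voom (0.015), without the filter (0.00081) and with the block (0.016). With a library left out, Sesn2 ran from -0.19 to 0.11 and Eif2ak3 from -0.038 to 0.098, and Eif2ak3 was -0.024 with library totals alone. Exact permutation tests of the difference gave p = 0.714 for Chac1 and 0.886 for Sesn2 on the log2 scale and 1.00 for Sesn2 on the CPM scale, each with the sign changed. The cause was not tested. Counts of 0 to 38 limit Chac1.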

Other observations

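Within a library, 4 ratios between genes of 1 route were computed after the values were seen. Mthfd2 over Shmt2, the enzymes of consecutive mitochondrial folate steps, was 0.219, 0.267, 0.128 and 0.119 in Mitol Δ/Δ libraries and 0.114, 0.0965, 0.0659 and 0.0621 in control libraries. The groups did not overlap, Mitol Δ/Δ replicate 4 included (2-sided exact permutation test, p = 0.0286, or 0.114 after adjustment for the 4 ratios). Psat1 over Phgdh was 1.15 ± 0.127 against 0.912 ± 0.0855 (SD, n = 4, 2-sided exact permutation test, p = 0.0571, adjusted p = 0.114). Slc7a5 over its heavy chain Slc3a2 was 1.40 ± 0.281 against 1.01 ± 0.140 (SD, n = 4, 2-sided exact permutation test, p = 0.0857, adjusted p = 0.114). Psph over Phgdh was 0.306 ± 0.0431 against 0.270 ± 0.0405 (SD, n = 4, 2-sided exact permutation test, p = 0.257, adjusted p = 0.257). None of the 4 passed the adjustment, which at 4 libraries against 4 would have needed at least 3 of them to reach the smallest p of 0.0286.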
